A study of Mus musculus with 2 samples.

Results

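The nuclear pore and nuclear transport genes were taken as the rows whose symbol begins with Nup, Kpna, Kpnb, Ipo or Xpo directly followed by a digit, leaving out Nupr symbols and pseudogenes marked -ps. This gave 40 of the 51826 genes listed, namely 21 nucleoporins or nucleoporin relatives and 19 karyopherins, and 38 of them averaged 1 TPM or more over the libraries. TPM (transcripts-per-million) is an abundance scaled by transcript length. Total RNA came from v6.5, an established embryonic stem (ES) cell line of the mouse, with 1 wild-type library and 1 library of cells labelled T29I in a series named for the PRSS1 gene. The labels give another name as the strain of both libraries and state neither how the mutation was introduced nor whether the mutant line was 1 clone. The comparison asks how RNA levels in the mutated ES cells differ from those in wild-type ES cells. Prss1, the trypsinogen gene taken as the target, was listed at 0 TPM in both libraries and gives no check of the labels. Because nothing was replicated, "lower" and "higher" describe these libraries and carry no p-value, and genotype, clone, culture and library preparation cannot be told apart.

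Nuclear pores are large protein channels through the nuclear envelope. Nucleoporins form a symmetrical scaffold of Y complexes and an inner ring, a central channel lined by phenylalanine-glycine (FG) repeats, cytoplasmic filaments and a nuclear basket. Karyopherins carry cargo through that channel: importin alpha adaptors read classical nuclear localisation signals and bind importin beta, other importins bind cargo directly, and exportins carry cargo out together with the GTPase Ran. In ES cells the importin alpha Kpna2 is known as a carrier of Oct4.

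Promoters of 31 of the 40 genes were found in the RefSeq table (GRCm38.p6), and 4 are shown because they share a motif while their ratios between the libraries differed. Each window holds the 150 bases before the RefSeq start, on the strand of the gene. They lie at chr7:44815938-44816087 (+) for Nup62, chr10:117792706-117792855 (-) for Nup107, chr15:84923278-84923427 (+) for Nup50 and chr17:46202661-46202810 (+) for Xpo5. Capitals mark matches on either strand to GCGCATGC (NRF1), CCAAT (NF-Y), GGGCGG (Sp and KLF factors) and CCGGAAG (ETS factors). GCGCATGC is part of GCGCATGCGC, the palindromic site of NRF1, a factor of housekeeping genes.
Nup62: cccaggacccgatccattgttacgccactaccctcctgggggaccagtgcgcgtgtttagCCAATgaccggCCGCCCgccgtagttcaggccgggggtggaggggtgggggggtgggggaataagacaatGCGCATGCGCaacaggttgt
Nup107: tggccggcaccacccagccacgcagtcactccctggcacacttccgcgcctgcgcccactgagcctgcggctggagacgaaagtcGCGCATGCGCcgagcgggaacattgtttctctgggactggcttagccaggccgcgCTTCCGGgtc
Nup50: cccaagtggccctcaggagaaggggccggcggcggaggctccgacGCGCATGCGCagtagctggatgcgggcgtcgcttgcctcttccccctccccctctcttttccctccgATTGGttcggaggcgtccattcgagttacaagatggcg
Xpo5: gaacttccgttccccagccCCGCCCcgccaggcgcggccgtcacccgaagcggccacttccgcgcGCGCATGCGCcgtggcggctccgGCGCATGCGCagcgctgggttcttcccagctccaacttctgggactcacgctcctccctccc

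The NRF1-type palindrome began 20 bases before the start of Nup62 and 65 before that of Nup107. Nup50 held it at 105 and 167 bases and Xpo5 at 62 and 85 bases before the start, so the copy of Nup50 farther away lies outside the window shown. In the full promoters of 300 bases (250 before the start and 50 after), GCGCATGC was found on either strand for 4 of the 31 genes, or 12.9%, against 6.23% of 9618 genes averaging 1 TPM or more. CCAAT was found for 58.1% of the 31 against 43.8%, GGGCGG for 71% against 69.5% and CCGGAAG for 16.1% against 20.5%. CACGTG, an E-box, was found for 16.1% against 12.1%, and TATAAA for 12.9% against 8.37%. Over the promoters of all 27025 genes in the table the shares were 3.05% for GCGCATGC, 41.1% for CCAAT, 38.2% for GGGCGG, 9.93% for CCGGAAG, 8.09% for CACGTG and 15.7% for TATAAA. Of the 4 genes with the palindrome, Nup62 had nearly equal TPM in both libraries, while Nup50, Nup107 and Xpo5 were lower in the T29I library with log2 ratios of -1.26, -1.76 and -1.80.

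Nearly every pore and transport gene was lower in the T29I library, and the typical size of the difference was close to that of other genes once length and GC content were adjusted for. Here and below, TPM values are given for the wild-type library first and the T29I library second, and log2 ratios divide T29I by wild-type after adding 1 to each TPM. Of the 38 genes averaging 1 TPM or more, 31 were lower by 2-fold or more and 0 higher by as much, where 45.7% of all 12943 such genes were lower and 9.97% higher. Counting any size of difference, all 38 were lower, beside 9249 of all 12943. The median log2 ratio was -1.60 for the 38 genes and -0.84 for all 12943. Together the 38 genes summed to 4831 and 1872 TPM, 2.58-fold less in the T29I library. Levels of 100 TPM or more were reached by 16 genes in wild-type and by 5 in T29I cells.

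**Figure D1:**
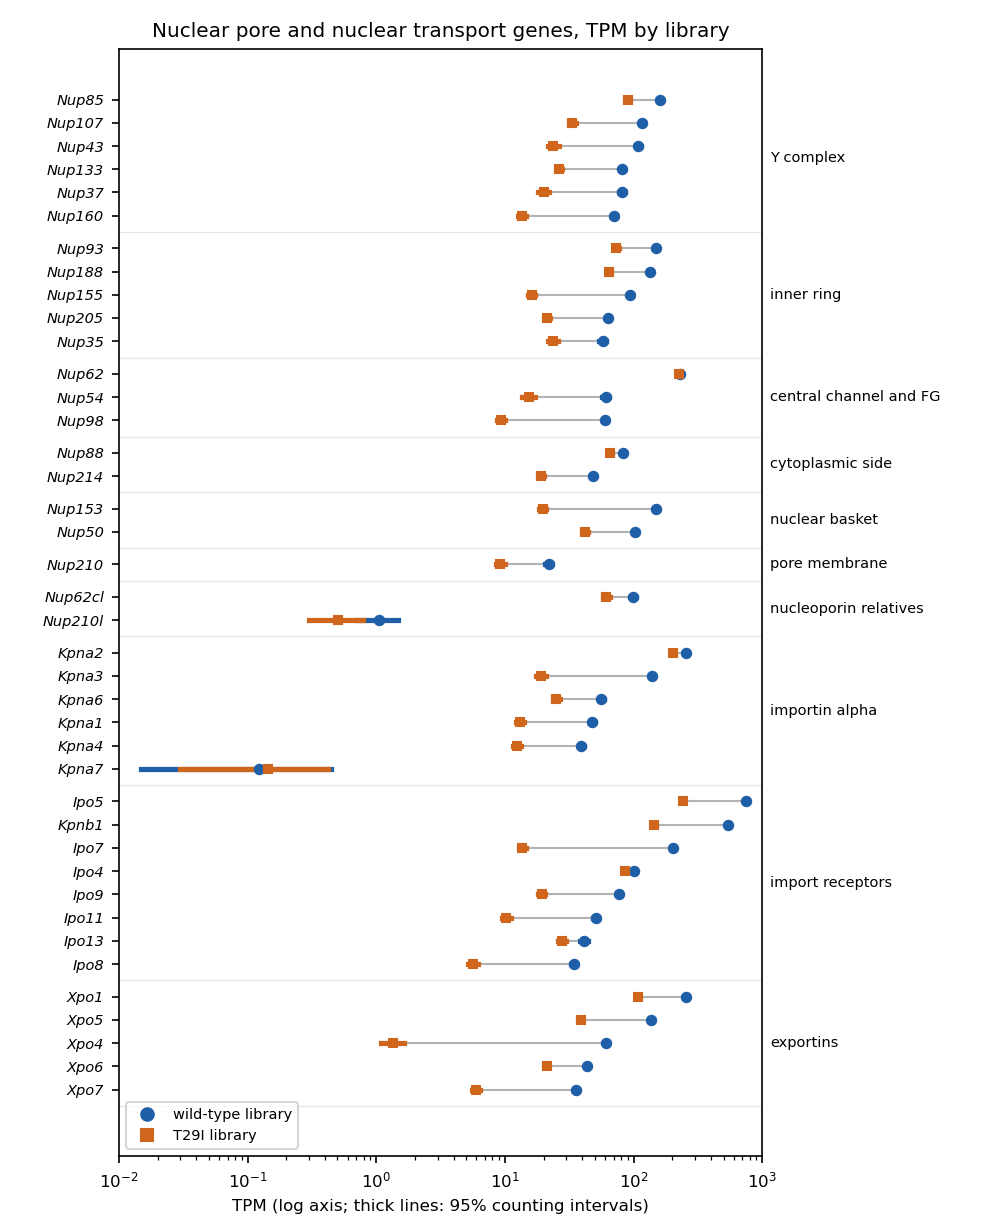
TPM of each of the 40 genes (log axis) in the wild-type library (circles) and the T29I library (squares), grouped by role, with 95% counting intervals as thick lines. The squares lie left of the circles for 39 genes, and Xpo4 has the longest gap, from 60.98 to 1.35 TPM. Of all 12943 genes averaging 1 TPM or more, 9249 were lower in the T29I library.

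The difference followed the length and GC content of the transcripts, in this set as in all genes. The longest coding transcript had a median of 4902 bases in the 38 genes and 3012 bases in 12121 protein-coding genes, with a median GC content of 46.9% and 50.8%. Across the 38 genes, the log2 ratio had a Spearman's rho of -0.40 with that length and of 0.58 with its GC content, against -0.49 and 0.56 across the protein-coding genes. These are descriptions across genes of the same libraries, not replicates. Among the 10 genes of up to 3000 bases the median log2 ratio was -0.92, against -0.18 for protein-coding genes of that length. Among the 11 genes over 6000 bases it was -1.93, against -1.99. By length alone, the long pore and transport genes thus sat at the level of other long genes, and the short ones lay below other short genes. Between these lengths the medians were -1.61 against -1.11 (3000 to 5000 bases) and -1.79 against -1.54 (5000 to 6000 bases). GC content was not matched in these groups. With length and GC content both adjusted for, the 10 short genes ranged from -1.10 for Nup43 to 0.87 for Nup88.

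**Figure D2:**
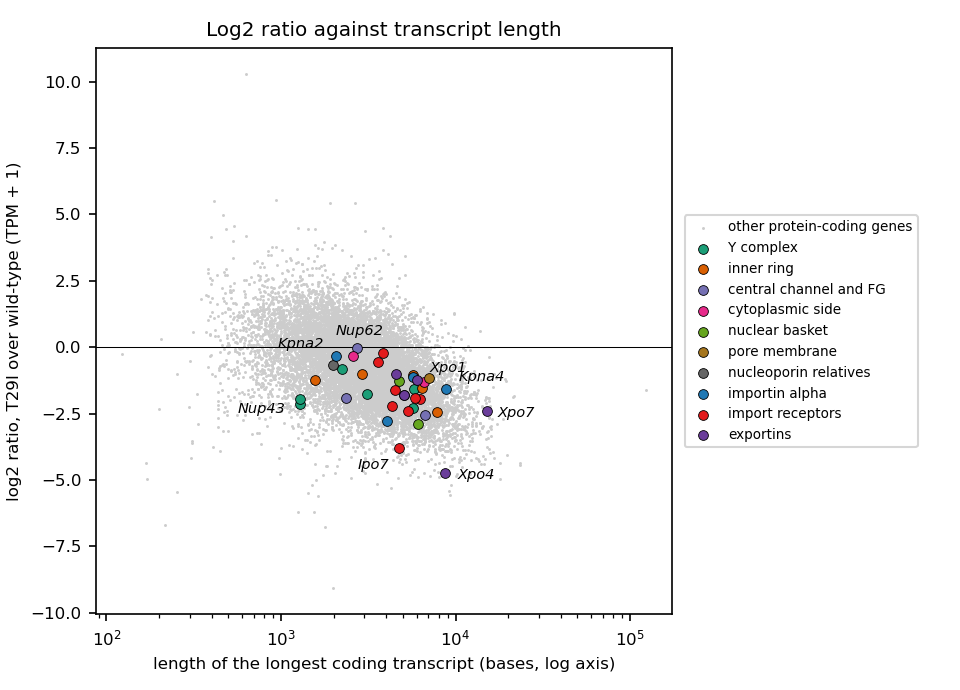
Log2 ratio against the length of the longest coding transcript (log axis) for protein-coding genes averaging 1 TPM or more (grey) and for the 38 pore and transport genes, coloured by role. The 38 genes lie between -4.72 and -0.030, mostly inside the grey band, with Xpo4 and Ipo7 near its lower edge.

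Relative to the shift, the median log2 ratio of -0.90 of the 9375 genes averaging 5 TPM or more, 15 of the 38 genes were lower by 2-fold or more and 0 higher by as much, where 22.2% of all genes were lower and 26% higher. After adjustment for length and GC content, 3 were lower and 3 higher, where 15.5% of all genes were lower and 17.6% higher, and the median of the 38 genes was -0.051. The lower genes were Xpo4 at -2.08, Ipo7 at -1.84 and Nup43 at -1.10, and the higher ones Xpo6 at 1.38, Kpna4 at 1.16 and Xpo7 at 1.15. Xpo4 and Ipo7 were beyond 2-fold lower under each of the 3 length measures tried, and 0 genes were beyond 2-fold higher under all of them. The longest annotated transcript of Xpo6 is non-coding, and with its longest coding transcript the adjusted value was 0.048.

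**Figure D3:**
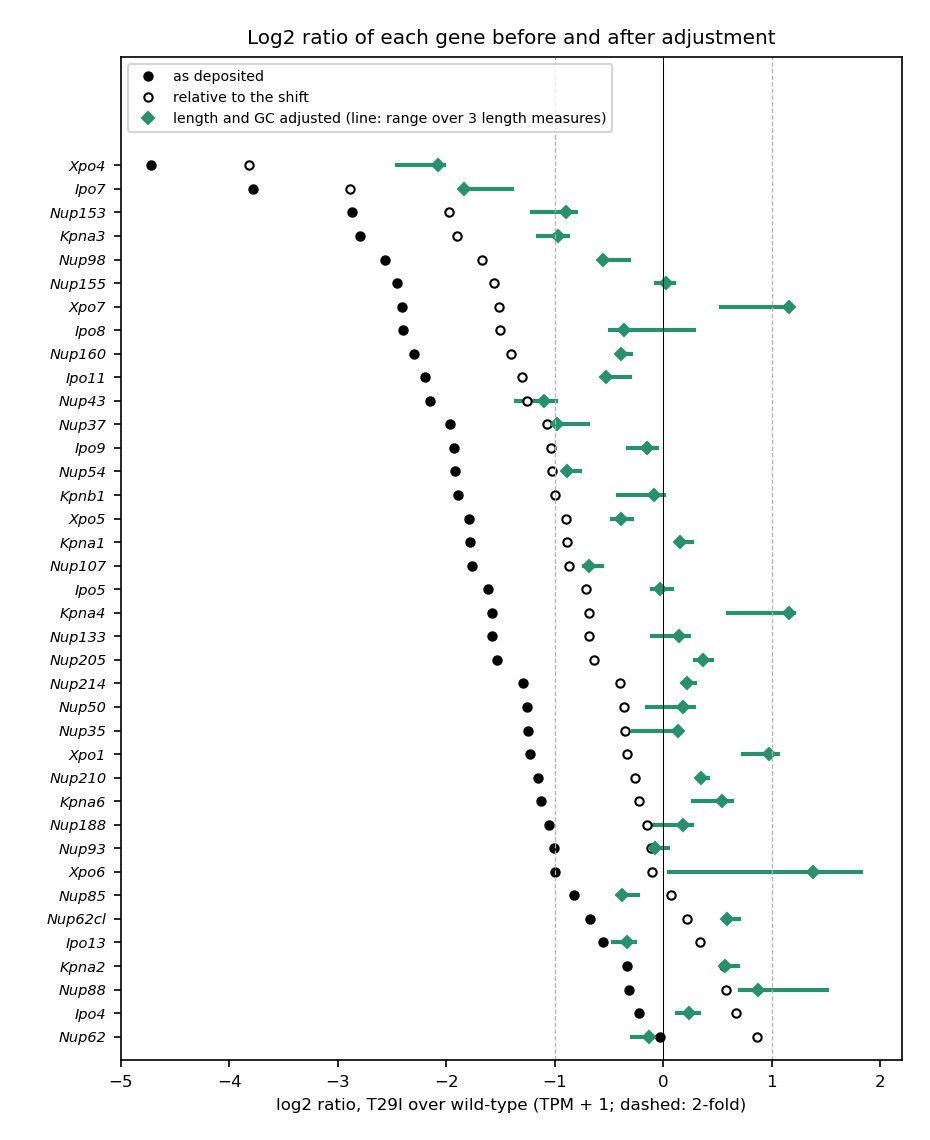
Log2 ratio of each of the 38 genes as deposited (black), relative to the shift (open) and after length and GC adjustment (diamonds; the line spans 3 length measures), with dashed lines at 2-fold. Adjusted values cluster around 0, with Xpo4 (-2.08) and Ipo7 (-1.84) at the low end.

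Of the Y complex, the outer scaffold of the pore, the 6 genes named by the symbol rule were each lower, by 1.78-fold to 5.21-fold. By 2-fold or more, 5 of them were lower, beside 45.7% of all genes. Subunits with other names, among them Sec13, Seh1l and the Nup96 made from the Nup98 gene, are not among these 6. Seh1l was at 173 and 56.61 TPM, and Sec13 was higher in T29I cells, at 228.6 and 249.1 TPM. Nup160 was at 70.8 and 13.6 TPM. Nup107 was at 116 and 33.4 TPM, and Nup133, which links neighbouring complexes, at 81.1 and 26.5 TPM. Of the small members, Nup37 was at 81.04 and 19.99 TPM and Nup43 at 109 and 23.8 TPM. Nup85 was the least different, at 160 and 89.8 TPM. The proportions within the complex therefore differed between the libraries: Nup85 stood at 1.46 times Nup43 in wild-type and at 3.77 times in T29I cells. The log2 ratios of this pair were -0.82 and -2.15 as deposited, and lay closer together at -0.38 and -1.10 after length and GC adjustment. Nup37 and Nup43 are short transcripts, so their adjusted log2 ratios stayed low at -0.98 and -1.10, while Nup133 reached 0.14. Nup43 overlaps Pcmt1 on the other strand, which was at 23.8 and 24.4 TPM, and Nup133 overlaps Gm20388 on the other strand, at 34.3 and 14.2 TPM. Counting by strand was not given in the sources used here.

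Inner ring genes, the scaffold that anchors the central channel, were lower in all 5 cases, all by 2-fold or more, beside 45.7% of all genes. Nup155 was the lowest at 93.1 TPM (95% counting interval 90.7 to 95.5) and 16.1 TPM (15.25 to 17.03), a difference of 5.77-fold. Of the large paralogous scaffold proteins, Nup205 was at 62.9 and 21.1 TPM and Nup188 at 134 and 64.4 TPM. Nup93, which joins them to the channel, was at 148 and 73.2 TPM, and Nup35 at 57.75 and 23.7 TPM. After adjustment the 5 values lay between -0.075 and 0.36, so the inner ring stood close to other genes of its length and GC content. Nup35 overlaps Dusp19 on the same strand, which was at 4.31 and 2.48 TPM.

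In the central channel, Nup62 stood apart from its partners. Nup62 (ENSMUSG00000109511, GRCm38 chr7:44816088-44830812), which forms the FG-rich core of the channel with Nup54, was at 231 TPM (223 to 239) and 226 TPM (220 to 233), and these intervals overlap. Nup54 was at 60.55 and 15.3 TPM, so the level of Nup62 was 3.82 times that of Nup54 in wild-type and 14.8 times in T29I cells. Nup98, an FG nucleoporin whose gene also encodes the Y complex protein Nup96, was at 59.8 TPM (57.9 to 61.7) and 9.26 TPM (8.62 to 9.94), a difference of 6.45-fold and an adjusted log2 ratio of -0.56. Relative to the shift Nup62 had a log2 ratio of 0.86, but its GC-rich transcript gave an adjusted value of -0.13. By TPM, Nup62 ranked 5th of the 40 genes in wild-type and 2nd in T29I cells. Nup62 overlaps Atf5 on the other strand, at 19.7 and 19.5 TPM.

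The peripheral nucleoporins were unequal. On the cytoplasmic side, Nup88 was at 82.6 TPM (79.9 to 85.4) and 66.1 TPM (63.96 to 68.3), a difference of 1.25-fold, while its partner Nup214, an FG protein that binds the exportin Xpo1, was at 48.3 and 19.1 TPM. In the nuclear basket, Nup153, which docks import complexes, was at 150 TPM (146 to 154) and 19.6 TPM (18.35 to 20.9), a difference of 7.65-fold. The mobile basket protein Nup50 was at 102 and 42.2 TPM, so it stood at 0.681 times Nup153 in wild-type and at 2.15 times in T29I cells. Nup210, a membrane glycoprotein of the pore, was at 21.9 and 9.23 TPM. The adjusted log2 ratios were -0.90 for Nup153, 0.18 for Nup50, 0.87 for Nup88, 0.22 for Nup214 and 0.35 for Nup210. Nup88 overlaps Rabep1 on the other strand, at 27.8 and 6.94 TPM, and Nup214 overlaps Fam78a and Gm16534, both under 3 TPM in either library.

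Of the nucleoporin relatives, Nup62cl, an X-linked gene related to Nup62, was at 98.65 TPM (93.01 to 104.5) and 61.3 TPM (57.4 to 65.45), with an adjusted log2 ratio of 0.59. Nup210l, a paralogue of Nup210 known from the testis, was at 1.04 TPM (0.709 to 1.48) and 0.503 TPM (0.303 to 0.785). The counting intervals of Nup210l overlap, and with a mean below 1 TPM it is not in the counts above.

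Among the importin alpha adaptors, Kpna2 was 1.26-fold lower and the others 2.23-fold to 7.26-fold lower, apart from Kpna7, which was near 0. By 2-fold or more, 4 of the 5 averaging 1 TPM or more were lower, beside 45.7% of all genes. Kpna2 (ENSMUSG00000018362, GRCm38 chr11:106988629-106999541) was at 254 TPM (246 to 262) and 201 TPM (195 to 208). Kpna3 was at 138 TPM (133 to 143) and 19.03 TPM (17.45 to 20.7), the lowest ratio of the family. Kpna4, its closest relative, was at 39.3 and 12.5 TPM. In another subfamily, Kpna1 was at 47.8 and 13.2 TPM and Kpna6 at 55.9 and 25.1 TPM. Kpna7, an oocyte importin alpha, was at 0.123 and 0.145 TPM, which came from an estimated 2 and 3 reads. The makeup of the family thus differed: Kpna2 held 47.4% of its summed TPM in wild-type and 74.2% in T29I cells, and Kpna3 held 25.8% and 7.02%. The level of Kpna2 was 1.84 times that of Kpna3 in wild-type and 10.6 times in T29I cells. With the adjustment Kpna2 was at 0.57 and Kpna3 at -0.97, so the order of the pair stayed as deposited. Kpna4 was then at 1.16, Kpna6 at 0.54 and Kpna1 at 0.15, so Kpna2 no longer stood apart from these. The pseudogene Kpna2-ps was listed at 0 in both libraries.

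**Figure D4:**
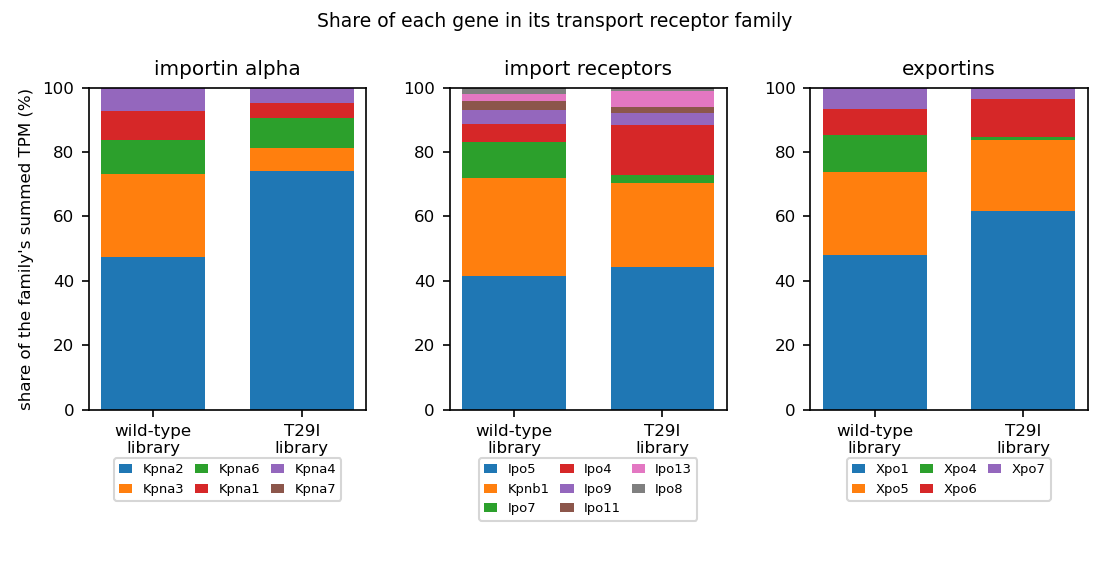
Share of each gene in the summed TPM of importin alpha genes, import receptors and exportins, in the wild-type library (left bar of each panel) and the T29I library (right bar). Kpna2 takes 47.4% and 74.2% of its family, Ipo7 11.2% and 2.48%, and Xpo4 11.4% and 0.770%.

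Import receptors of the importin beta type were lower in all 8 cases, 6 of them by at least 2-fold, beside 45.7% of all genes. After adjustment 1 of the 8 was lower by as much, beside 15.5% of all genes. Ipo5, an importin of ribosomal proteins and histones, was the most abundant of all 40 genes in both libraries, at 745 and 243 TPM. Kpnb1, the importin beta that pairs with importin alpha, was at 542 TPM (534.6 to 550.2), the 2nd rank, and at 145 TPM (141.5 to 148.6), the 4th rank. Ipo7 (ENSMUSG00000066232, GRCm38 chr7:110018274-110056609) was at 201 TPM (197.5 to 204.8) and 13.6 TPM (12.8 to 14.5), a difference of 14.75-fold. Its paralogue Ipo8 was at 34.15 and 5.66 TPM, 6.04-fold lower, so that Ipo7 stood at 5.89 times Ipo8 in wild-type and at 2.41 times in T29I cells. Ipo9, an importin of histones and actin, was at 76.8 and 19.4 TPM, and Ipo11 at 50.8 and 10.3 TPM. The 2 genes of this group within 2-fold were Ipo4 at 101 TPM (96.7 to 104.7) and 85.9 TPM (82.7 to 89.3), and Ipo13, which works in both directions, at 41.1 TPM (38.4 to 43.9) and 27.6 TPM (25.7 to 29.6). Ipo4 ranked 16th of the 40 genes in wild-type and 7th in T29I cells, and its share of the group was 5.62% and 15.6%. Adjusted for length and GC content, Ipo5 and Kpnb1 were at -0.027 and -0.089, Ipo4 at 0.24 and Ipo13 at -0.34.

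Exportins were lower by 2-fold or more in all 5 cases, beside 45.7% of all genes, and Xpo4 had the lowest ratio of all 40 genes. Xpo4 (ENSMUSG00000021952, GRCm38 chr14:57577521-57665430), which exports the translation factor eIF5A and Smad3 and imports Sox2, was at 60.98 TPM (58.95 to 63.07) and 1.35 TPM (1.10 to 1.65). That is 45.0-fold lower, with a counting interval of 36.8-fold to 55.75-fold, from an estimated 3397 and 96 reads. Xpo1, the exportin of leucine-rich export signals also known as Crm1, was at 257 TPM (252 to 262) and 109 TPM (106 to 112). The level of Xpo1 was 4.22 times that of Xpo4 in wild-type and 80.3 times in T29I cells. Xpo5, the exporter of microRNA precursors, was at 137 and 38.85 TPM, Xpo6, the exporter of actin, at 43.25 and 21.1 TPM, and Xpo7 at 35.85 and 5.93 TPM. With the longest transcript, the adjusted values divided the family: Xpo4 was at -2.08 and Xpo5 at -0.39. Xpo1 was at 0.97, Xpo7 at 1.15 and Xpo6 at 1.38. The sizes depended on the length measure: with merged exon length Xpo1 was at 0.73, Xpo7 at 0.53 and Xpo6 at 1.82. With the longest coding transcript Xpo6 was at 0.048. Xpo7 overlaps Npm2 on the same strand, at 1.16 and 2.13 TPM, and Dok2 on the other, at 5.58 and 23.6 TPM.

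Among pore proteins with other names, Tpr, Ranbp2 and Ahctf1 were 28.8-fold, 22.9-fold and 15.85-fold lower. As deposited, 8 of the 12 in this list were lower by 2-fold or more and 0 higher, beside 45.7% and 9.97% of all genes, with a median of -1.50. Relative to the shift 4 were lower and 2 higher, beside 22.2% and 26% of all genes, with a median of -0.61. After adjustment 4 were lower and 0 higher, beside 15.5% and 17.6%. The large basket filament protein Tpr was at 151 and 5.22 TPM. Ranbp2, the main cytoplasmic filament, was at 96.1 and 4.195 TPM, and Ahctf1, which seeds pore assembly on chromatin, at 116 and 7.31 TPM. Their adjusted log2 ratios were -2.29, -1.36 and -1.29. Nupl1, the third subunit of the Nup62 channel complex, was at 97.3 and 9.89 TPM, with an adjusted value of -1.88; it was named after its values were seen. At the other end, Aaas was at 186 and 239 TPM, Sec13 at the level given above, and Rae1 at 148 and 98.2 TPM.

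The Ran cycle gives transport its direction, and its genes had a median log2 ratio of -0.13 as deposited. Of the 8 symbols in this list 7 were found, all but Mog1. Among these 7 genes 1 was lower by 2-fold or more and 0 higher as deposited, beside 45.7% and 9.97% of all genes. Relative to the shift the numbers were 0 lower and 2 higher, beside 22.2% and 26%, so the higher share was near that of all genes. Ran itself was at 1138 and 1038 TPM, and Rcc1, its exchange factor on chromatin, at 158 and 123 TPM. Rangap1, which triggers GTP hydrolysis, was at 280 and 174 TPM, and Ranbp1 at 684 and 188 TPM. Higher in the T29I library were Rangrf at 138 and 218 TPM and Nutf2, the import carrier of Ran, at 58.6 and 80.2 TPM, while Ranbp3 was at 172 and 171 TPM. After adjustment the median was 0.63, but -0.061 when lengths came from the longest coding transcript.

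Of the transport receptors with other names, 6 of 8 were lower by 2-fold or more as deposited, and 5 of 8 were so against the shift, beside 45.7% and 22.2% of all genes. After length and GC adjustment 1 was lower and 1 higher, beside 15.5% and 17.6% of all genes, with a median of -0.23. Tnpo3, an importin of SR splicing factors, was at 76.9 and 8.73 TPM, Tnpo1, the transportin of M9 signals, at 155 and 21 TPM, and Cse1l, which recycles importin alpha, at 215 and 34.8 TPM. The highest ratios were those of the mRNA export cofactors Nxt1, at 83.89 and 77.99 TPM, and Nxt2, at 6.43 and 4.29 TPM, and of their partner Nxf1, at 111 and 47.5 TPM. In the mRNA export list 7 of 15 were lower by 2-fold or more and 0 higher as deposited, while 3 were lower and 1 higher against the shift. These are 46.7% and 20% lower, near the 45.7% and 22.2% of all genes, and the adjusted median was -0.015. Thoc2, the large scaffold of the THO complex, was at 29.4 and 1.12 TPM, Ddx19b at 32.2 and 3.705 TPM and Thoc1 at 69.3 and 12.5 TPM. Thoc6 was at 102 and 118.5 TPM, the helicase Ddx39b at 384 and 377 TPM and Pcid2 at 57.0 and 54.4 TPM.

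**Figure D5:**
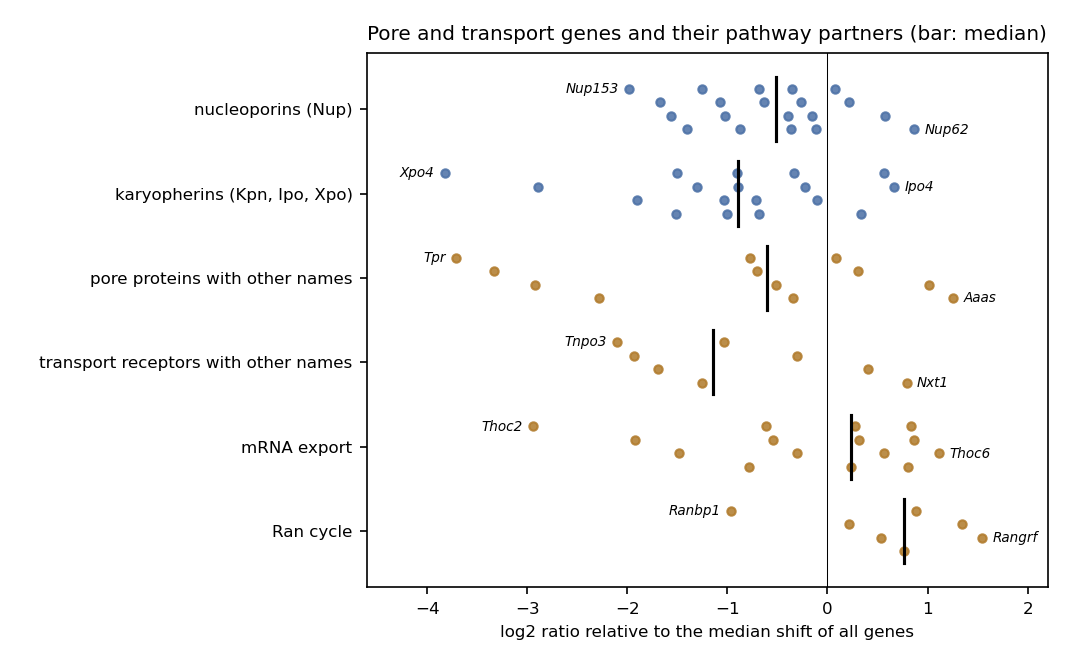
Log2 ratio relative to the shift for nucleoporins, karyopherins and 4 lists of pathway partners averaging 1 TPM or more; each point is a gene and the bar is the median. Xpo4 and Tpr lie lowest, and the median of the Ran cycle lies above 0 at 0.76.

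The libraries also differed in cell type markers. All 8 ES cell markers were above 20 TPM in both libraries, but 7 were lower in T29I cells and 1 higher. Among all 12943 genes averaging 1 TPM or more, 9249 were lower. By 2-fold or more, 4 of the 8 markers were lower and 1 higher, beside 45.7% and 9.97% of all genes. Adjusted for length and GC content, 3 were lower and 0 higher, beside 15.5% and 17.6%. Zfp42 was at 544 and 23.34 TPM, Nanog at 765.1 and 140.3 TPM and Esrrb at 313 and 77.5 TPM, while Utf1 was at 972.3 and 2459 TPM. The adjusted log2 ratio of Utf1 was -0.40. Pou5f1 was at 1722 and 1454 TPM and Sox2 at 562.8 and 354.6 TPM, with log2 ratios of 0.65 and 0.23 relative to the shift. Adjusted for length and GC content, Pou5f1 was at -0.95 and Sox2 at -0.20, the highest adjusted value of the 8. The 8 ES cell markers summed to 10870 and 7498 TPM. Of 8 trophoblast markers, 7 had a higher TPM in the T29I library, among them Cdx2 and Elf5, which were below 1 TPM in both. Tfap2c was lower, at 73.4 and 53.1 TPM. The 8 summed to 119 and 881 TPM. Most of the T29I sum came from the keratins Krt8, at 28.6 and 388.7 TPM, and Krt18, at 15.4 and 353 TPM. Hand1 was at 0.868 and 79.5 TPM, Plac1 at 0 and 4.56 TPM and Gata3 at 0.339 and 1.56 TPM. By 2-fold or more, 4 of the 5 averaging 1 TPM or more were higher and 0 lower, beside 9.97% and 45.7% of all genes. Of the 8 fibroblast feeder markers 4 were lower, 3 higher and Lum at 0 in both; they summed to 7.26 and 19.6 TPM, of which Thy1 alone gave 4.57 and 17.6 TPM. The collagen genes Col1a2 and Col3a1 were below 1 TPM in both. The part of these cell states in the levels of pore and transport genes was not tested, and in bulk RNA fewer cells of a type cannot be told apart from less RNA per cell.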

How the data were processed

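Total RNA of wild-type and T29I ES cells was sequenced in 1 library each, grouped by the genotype labels and, per the labels' protocols, made with a stranded kit after removal of ribosomal RNA. The authors deposited TPM values for 51826 genes; aligner, counting tool, build and annotation were not given in the sources used here. Columns were matched through the sample descriptions.

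Members were found by symbol. Log2 ratios used log2(TPM + 1), and the size rule was 2-fold among genes averaging 1 TPM or more. Every member is accounted for, with counting intervals and adjusted ratios for the 6 lowest and 6 highest ratios among members averaging 5 TPM or more and for Kpnb1, Xpo1 and Kpna2; of each pathway list the 3 lowest and 3 highest are named. Members and lists were chosen with earlier results of these data known.

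GENCODE M21 (GRCm38, perhaps not the authors' build) matched 51633 identifiers and gave lengths, GC content and coordinates. TPM times merged exon length, over the value of 1 read, was whole within 0.05 for 81.0% of wild-type and 79.9% of T29I values, and for 24 of 40 members in both. Estimated depths were 16910002 and 15281662 reads; 95% exact Poisson intervals cover counting error only. The length and GC adjustment took residuals of a quadratic fit on 9100 protein-coding genes averaging 5 TPM or more, and also takes away real differences linked to either property. No count model or test was used with 1 library per group. Other pseudocounts, filters, scalings and length measures were tried. Python 3.11.15, numpy 2.4.6, pandas 2.3.3 and scipy 1.17.1 were used.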

Additional observations from a re-analysis of the deposited data

How the results depend on the processing

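Under pseudocounts of 0.1 and 5, no minimum, a minimum of 5 TPM and rescaling without the 20 most abundant genes, 27 to 31 members were lower by 2-fold or more and 0 higher, 14 or 15 were so relative to the shift, and the median over all members lay between -1.63 and -1.42. Single genes depended more on the pseudocount: with 5, the 6 lowest ratios were less negative, and Ipo7 at -3.47 lay below Xpo4 at -3.38. Relative to the shift, 15 members were lower, and the medians were -0.70 for all members, -0.52 for nucleoporins and -0.90 for karyopherins. The length and GC adjustment moved these results most. With the longest transcript, 3 members were lower and 3 higher, and the medians were -0.051, -0.024 and -0.058. With merged exon length, 4 were lower and 2 higher, and the medians were -0.13, -0.16 and 0.013. With the longest coding transcript, chosen after seeing the data because the longest transcript of 6 members is non-coding, 3 were lower and 3 higher, and the medians were 0.026, -0.0011 and 0.027. Of the 31 members lower by 2-fold or more, 14 were above 0 after adjustment with the longest transcript, 12 with merged exons and 16 with the longest coding transcript, 9 of them with all 3. Among the 14 members given in full, these were Nup155 (0.027 and 0.095 with the longest and the longest coding transcript), Xpo1 (0.97, 0.73 and 1.05 with the longest transcript, merged exons and the longest coding transcript) and Kpnb1 (0.0058 with the longest coding transcript). The cause of these moves is the construction of the adjustment, which removes what follows length and GC content. With 1 library per group, no value here has a replicate check. Depth limits only Kpna7 and Nup210l, and leaves a wide interval for Xpo4 in the T29I library.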

Other observations

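The 5 members on chromosome 14 (Xpo4, Kpna3, Xpo7, Ipo5 and Ipo4) ranged from -4.72 for Xpo4 to -0.23 for Ipo4 on the log2 scale as deposited. Their median of -2.41 stood beside -1.37 for the 332 genes of that chromosome averaging 5 TPM or more. After adjustment for length and GC content the medians were -0.027 and -0.20. Xpo4 at -2.08 and Kpna3 at -0.97 still lay below the latter, and Ipo5 at -0.027, Ipo4 at 0.24 and Xpo7 at 1.15 above it. The 4 members on chromosome 7 (Ipo7, Nup98, Xpo6 and Nup62) had a median of -1.78 beside -0.19 for 740 genes, and of -0.345 beside 0.084 after adjustment. The 3 members on chromosome 10 (Nup43, Nup37 and Nup107), all of the Y complex, had a median of -1.97 beside -0.94 for 455 genes, and of -0.98 beside -0.15 after adjustment for length and GC content. Of the other chromosomes with 3 or more members, chromosome 11 held 5, with a median of -0.82 beside -0.26 for 832 genes. After adjustment these were 0.57 and 0.36. The 4 on chromosome 2 had a median of -1.27 beside -1.05 for 753 genes, and of 0.16 beside -0.16 after adjustment. The 3 on chromosome 6 had a median of -1.53 beside -0.63 for 363 genes, and of 0.35 beside 0.38 after adjustment. With so few members per chromosome and 1 library per group, no test was made.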
